A study of Mus musculus with 76 samples.

Results

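Double negative 4 (DN4) thymocytes that arose from Hoxb5-transduced pro/pre-B cells were compared with natural DN4 thymocytes, gene by gene. The comparison took every library whose label names it iDN4 or DN4, which gave 4 induced and 3 natural libraries, 7 of the 76 in the series. All mice were of the C57BL/6 strain. Natural DN4 cells were sorted from thymus. Induced DN4 cells go back to pro/pre-B cells of the marrow that were infected in culture with a virus carrying Hoxb5, a homeobox transcription factor, sorted again and given to sublethally irradiated recipients, whose thymus was later sorted for DN4 cells. The induced cells have thus met the virus, culture, transplantation and an irradiated host, and the labels describe none of these for natural DN4 cells. Transgene, handling and host cannot be told apart here, and the labels do not name the vector's promoter or a marker that sets donor cells apart from host cells. Each library was made from 1000 sorted cells. The labels do not give the age or sex of the mice, the sort gates, or whether each library stands for an animal of its own, so the p-values measure the spread between these libraries only.

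DN4 thymocytes have lost CD44, Kit and the interleukin 2 receptor alpha chain and do not yet carry CD4 and CD8. They have just passed beta selection. At that checkpoint a rearranged T cell receptor beta chain, paired with the invariant pre-T alpha chain (Ptcra) and the CD3 chains, signals through the kinases Lck and Zap70. Cells that receive the signal shut down the Notch program of DN3, divide rapidly, and then turn on CD8, CD4 and the recombination of the alpha locus as they become double positive (DP).

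Values are FPKM, fragments scaled for transcript length and library size, so levels can be set side by side between genes. Differences are given on the log2(FPKM + 1) scale, induced minus natural, with the standard error of a limma model that held all 24 groups, and a gene was called where the Benjamini-Hochberg adjusted p over 17416 genes lay under 0.05. "The fit of the 2 groups alone" names the same model with only the 7 DN4 libraries. In bulk libraries like these, fewer cells of a type and less RNA per cell cannot be told apart. From the steps between low values, the induced libraries held 5.32 to 6.77 fragments per FPKM and kilobase and the natural ones 3.54 to 3.98, so depth moved with the group and its part in the results was not tested. Genes at 1 FPKM or more numbered 10466 to 10545 in induced and 10536 to 10575 in natural libraries.

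In both groups Cd44, Kit and Cd4 were low and beta chain genes high, as the label asks, whereas transcripts of the CD8 chains were present. Trbc1 and Trbc2, the constant regions of the beta chain, stood at 1139 to 1322 and 1944 to 2463 FPKM in the induced and at 1147 to 1346 and 2562 to 2774 FPKM in the natural libraries. Cd44 was at 0 to 1.000 and 0 to 0.739 FPKM, Kit at 1.10 to 2.32 and 0.713 to 1.44 FPKM and Cd4 at 0.651 to 1.31 and 0.8289 to 2.32 FPKM in induced and natural libraries. Il2ra, which marks DN3, was at 3.89 to 6.35 FPKM in induced and 1.85 to 3.97 FPKM in natural DN4, against means of 207 ± 30.0 (SD, n = 3) and 189.7 ± 13.1 FPKM (SD, n = 2) in induced and natural DN3. Cd8b1 was at 28.02 to 49.3 FPKM in induced and 136 to 196 FPKM in natural DN4, and Cd8a at 7.23 to 9.78 and 14.3 to 17.9 FPKM. Each induced library correlated best, among the 15 natural groups, with natural DN4 (Pearson's r across genes 0.970 to 0.977). Natural DN4 libraries reached 0.976 to 0.979 with the mean of the other natural DN4 libraries, and the next group for the induced libraries was DN2 at 0.951 to 0.957. Genes are not independent replicates, so these coefficients only describe.

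Hoxb5 itself was nearly silent at this stage. It was listed at 0.104, 0.117, 0.211 and 0.193 FPKM in the 4 induced libraries and at 0 in the 3 natural ones, and the difference was not called (adjusted p = 0.971). Values this low rest on few fragments. For a transcript of 2 kilobases, 3 fragments equal 0.222 to 0.282 FPKM in induced and 0.377 to 0.423 FPKM in the shallower natural libraries. The table does not separate viral from endogenous transcripts. At DP the induced mean was 1.24 ± 0.646 FPKM (SD, n = 3), and the difference between sources at DN4 minus that at DP was -0.88 ± 0.24 (SE) on the log2 scale (adjusted p = 0.0469).

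The libraries of the 2 sources differed in the markers of sex. Xist, which is expressed from the inactive X, was at 4.21, 5.77, 9.72 and 10.4 FPKM in the induced and at 0.0737, 0.0660 and 0 FPKM in the natural libraries. Eif2s3y, on the Y chromosome, was listed at 0 in all 4 induced libraries and at 30.6, 43.6 and 47.4 FPKM in the natural ones. Ddx3y was likewise listed at 0 against 7.82 to 9.58 FPKM, and Kdm5d at 0 against 1.10 to 2.00 FPKM. Sex and source therefore cannot be told apart at any gene. Of 630 X-linked genes tested 4 were called (0.635%), near the 0.741% called over all genes.

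Of the 17416 genes, 129 were called (0.741%). Higher in induced DN4 were 68 (0.39%) and lower were 61 (0.35%). With each library scaled to an equal total the same fit called 78 higher and 41 lower. Without natural DN4 replicate 1 it called 77, and with library weights 1462. Of the 129, 30 differed by 4-fold or more, and 1359 genes had an unadjusted p under 0.05. In the fit of the 2 groups alone 708 of 11335 genes were called (6.25%), 351 higher (3.1%) and 357 lower (3.15%), and 108 of the 129 were among them. The libraries of both DN4 groups scattered less than most, with a median standard deviation of 0.199 (induced) and 0.195 (natural) on the log2 scale against a median of 0.258 over the 24 groups, and the pooled fit applies the wider spread to them. For 10775 genes (61.9%) the 95% interval of the difference lay within 2-fold in either direction. With a pseudocount of 0.1, which compresses low genes less, 5313 did, and without the filter on low values 16444 did. The 4 induced and 3 natural libraries did not overlap for 120 of the 129 called genes and for 15.3% of all genes tested.

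The called members of 28 gene lists, sex-linked genes apart, are named here, where 0.741% of all genes tested were called. Higher were 3 heat shock genes, 3 immediate early genes and Malat1, and lower were Tcf3, Cd8b1, Ccl5 and Il2rb. No member of the receptor complex, receptor signaling, Notch, cell cycle, growth or survival lists was called.

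**Figure D1:**
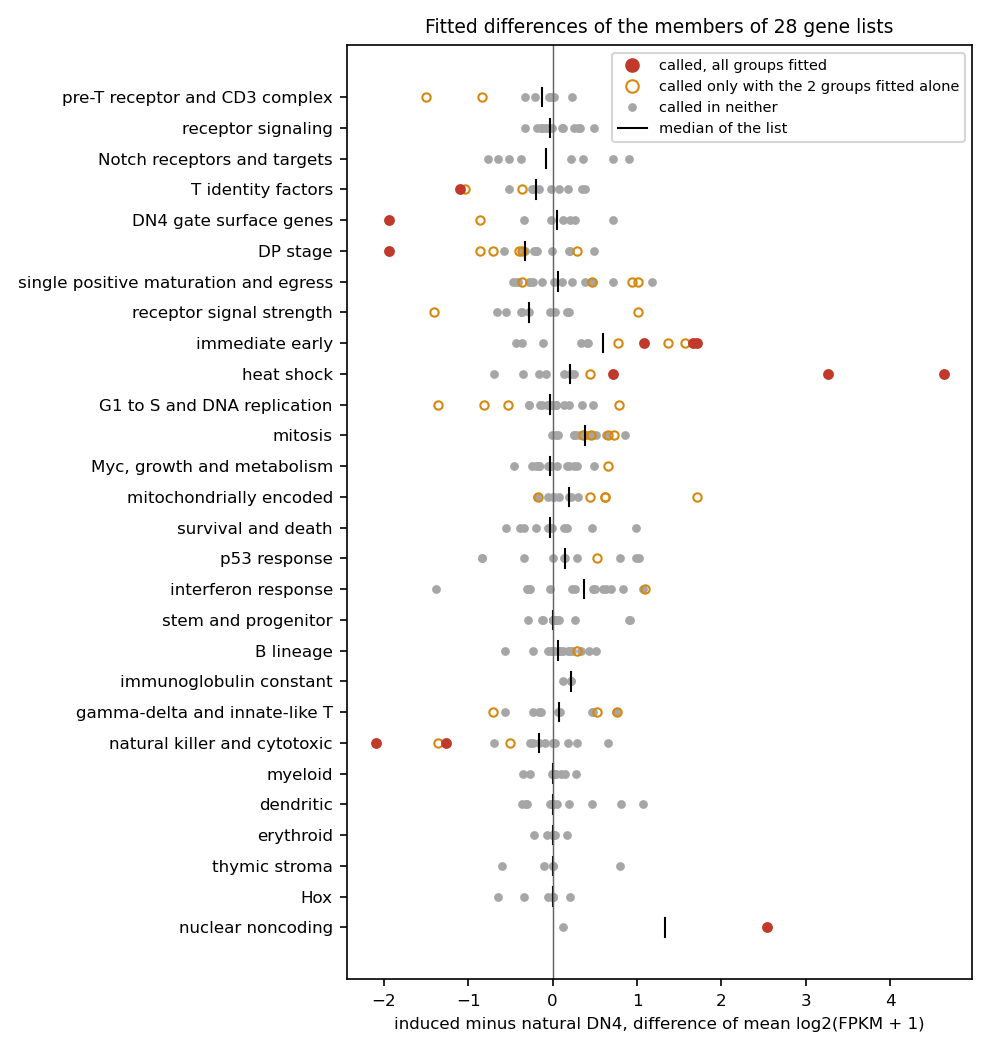
Each point is a member of a gene list and its fitted difference (x axis, induced minus natural DN4, log2(FPKM + 1)); filled red points were called, open points only in the fit of the 2 groups alone, and the black tick is the median of the list. Most members lie within 1 log2 unit of 0, and the called members to the right are those of the heat shock, immediate early and nuclear noncoding lists.

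The chains that form the pre-T receptor and CD3 complex were abundant in both sources, with Ptcra and Trac lying lower in induced DN4 without passing the test. None of the 8 tested members was called, against 0.741% of all genes, and 6 had an interval within 2-fold (median difference -0.13, against 0 over all genes). Cd3g, a CD3 chain, was at 568, 540.1, 617 and 746 FPKM in induced and 658, 601 and 607 FPKM in natural DN4, and its interval ran from -0.32 to 0.28. Cd3d was at 246, 276, 298 and 269 FPKM against 265, 275 and 268 FPKM. The ranges overlap for both genes. Ptcra was at 33.8, 28.6, 31.3 and 20.6 FPKM in induced and 52.3, 53.5 and 47.6 FPKM in natural libraries. Every induced library was lower, but the difference of -0.84 ± 0.47 (SE) was not called (adjusted p = 0.741), while the fit of the 2 groups alone called it (adjusted p = 0.0191). Trac, the constant region of the alpha chain that replaces pre-T alpha at DP, was at 43.5, 37.4, 21.9 and 21.4 FPKM in induced and 89.8, 82.4 and 84.5 FPKM in natural libraries. These groups are apart as well, with a difference of -1.50 ± 0.46 (SE), an adjusted p of 0.137 over all groups and 0.00647 with the 2 groups alone.

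Receptor signaling genes lay close to each other in both sources. None of 14 was called, 13 had an interval within 2-fold, and the fit of the 2 groups alone called none of them either. FPKM over all genes summed to 830339 to 874348 in induced and 898261 to 917796 in natural libraries, which bears on small differences. Of the 14 genes, 6 had a difference above 0, and 10 did when each library was scaled to an equal total. Lck, the kinase that starts the signal, was at 789, 750.4, 718 and 752 FPKM in induced and 849, 868 and 859 FPKM in natural libraries, lower in each induced library, with an interval of -0.57 to 0.19. Zap70, the kinase that Lck activates, was at 105 to 121 FPKM against 119.5 to 139.8 FPKM, and the groups overlap. Lat, the adaptor that Zap70 phosphorylates, was at 649.5 to 757 FPKM in induced and 758 to 976 FPKM in natural libraries, just short of overlap. Themis, an adaptor of thymocyte selection, had the highest difference of the list, 0.49 ± 0.19 (SE), which was not called (adjusted p = 0.343).

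The beta repertoire was broad in both groups. Of 20 beta variable segments in the table, 18 or 19 reached 1 FPKM in every library. The leading segment was Trbv13-2, Trbv5, Trbv13-1 and Trbv5 in the 4 induced libraries and Trbv13-2, Trbv5 and Trbv5 in the natural ones. It held 11.9%, 11.2%, 13.4% and 11.5% of the summed Trbv level in induced and 14.5%, 12.6% and 14.0% in natural libraries. The exact two-sided permutation test of that share gave p = 0.114 (adjusted p = 0.254 over the 20 values tested in 4 segment families). With 35 ways to assign 4 and 3 libraries it cannot go below 0.0571. The number of segments that would give the same concentration if used equally was 12.5 to 14.3 in induced and 11.8 to 12.4 in natural libraries, a difference at that smallest p (adjusted p = 0.163). Among the 19 segments plotted, the shares of 2 did not overlap between sources, where the FPKM of 15.3% of all genes tested did not overlap. So few are no result about these segments. Trbv19 held 4.92% to 7.61% in induced and 8.44% to 11.03% in natural libraries, and Trbv31 held 3.36% to 4.49% against 2.00% to 3.12%. FPKM of short segments measure RNA, not rearranged cells.

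**Figure D2:**
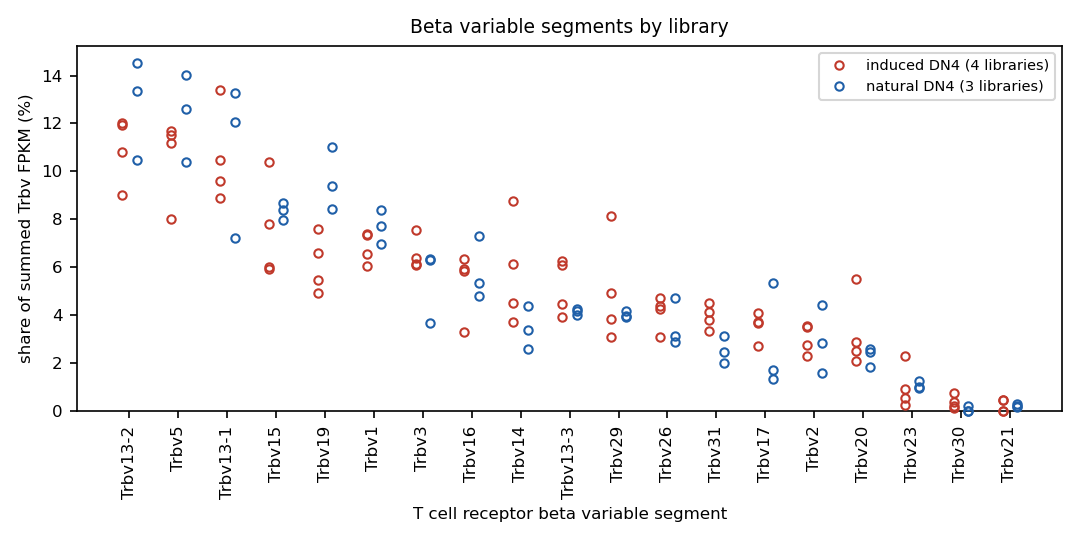
Share of the summed beta variable segment level (y axis, percent) for each of the 19 segments with at least 10 FPKM in a DN4 library (x axis), 4 induced libraries in red and 3 natural ones in blue. The highest share is 14.5%, and the 2 sources overlap at all but Trbv19 and Trbv31. Of all genes tested, 15.3% did not overlap in FPKM.

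Gamma and delta segments lay higher in induced DN4, at the smallest p that the design allows. Segments of the gamma chain (Tcrg-V, including Trgv2, which led in all 7 libraries) summed to 644, 724, 630.2 and 607 FPKM in induced and 337, 450.2 and 364 FPKM in natural libraries. All 4 induced libraries were above all 3 natural ones (exact permutation p = 0.0571, the smallest possible, adjusted p = 0.163). Tcrg-C4, a gamma constant gene, was at 241 to 291 FPKM in induced and 144 to 176 FPKM in natural libraries (difference 0.76 ± 0.50, adjusted p = 0.854, and 0.00392 with the 2 groups alone). Of the other gamma constant genes, Tcrg-C1 was called under no alternative run (adjusted p = 0.971 over all groups), and Tcrg-C2 only with the 2 groups alone. Delta variable segments summed to 58.2 to 72.8 FPKM against 47.5 to 54.2 FPKM (exact permutation p = 0.0571, adjusted p = 0.163). Alpha variable segments were low in both, summing to 16.0 to 56.8 FPKM and 27.1 to 39.1 FPKM. Trav15-2-dv6-2, a segment shared by the alpha and delta loci, led in every library and held 54.7% to 89.6% of that sum in induced and 18.5% to 52.4% in natural libraries (exact permutation p = 0.0571, adjusted p = 0.163).

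Variable segments of the immunoglobulin chains were almost all listed at 0. All 27 heavy chain segments in the table were listed at 0 in all 7 libraries, and of 59 kappa segments 1 was above 0, at 0.971 FPKM in induced replicate 1. The constant region Ighm was expressed in both, at 525, 561, 583 and 499.6 FPKM in induced and 477, 469.8 and 447 FPKM in natural libraries, and was not called (interval -0.36 to 0.80). None of the 3 immunoglobulin constant genes tested was called. Of 20 B lineage genes none was called, and 8 stayed under 1 FPKM in all 7 libraries. The 20 summed to 1017 to 1113 FPKM in induced and 858 to 931 FPKM in natural libraries, without overlap. Most of that sum was Dntt, a gene that thymocytes also express and the 1 member called higher with the 2 groups alone. Pax5 and Ebf1, factors that define B cells, were listed at 0 in every library. Cd79b, the immunoglobulin beta chain, was at 19.4 to 28.7 FPKM in induced and 18.3 to 32.4 FPKM in natural DN4.

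Among the 12 transcription factors of T identity, 1 fell (0.35% of all genes) and 11 were not called. That gene was Tcf3, which encodes the E2A proteins that drive early T cell genes. Tcf3 was at 30.8, 30.0, 24.6 and 22.5 FPKM in induced and 61.0, 64.1 and 50.9 FPKM in natural libraries. The groups do not overlap, the difference was -1.10 ± 0.19 (SE, adjusted p = 0.000276), and the call held under every alternative run. Lef1, an effector of Wnt signaling with Tcf7, was at 44.1, 50.9, 42.0 and 22.4 FPKM against 93.6, 76.7 and 69.5 FPKM. It lay lower in every induced library with a difference of -1.04 ± 0.29 (SE) that missed the threshold (adjusted p = 0.0833) and passed with the 2 groups alone (adjusted p = 0.0327). Tcf7, the factor that Notch first turns on, was at 1265, 1234, 1188 and 1119 FPKM against 1416, 1597 and 1611 FPKM, and was called only with the 2 groups alone (difference -0.36 ± 0.16, adjusted p = 0.0239 there and 0.509 over all groups). Bcl11b, the factor of T commitment, was at 43.4 to 63.7 FPKM against 67.8 to 85.6 FPKM (adjusted p = 0.292). For Gata3, the range was 54.3 to 75.0 FPKM in induced and 76.7 to 81.5 FPKM in natural libraries, and its interval, -0.65 to 0.15, lay within 2-fold. Ikzf1 was at 136 to 156 FPKM against 104 to 126 FPKM (difference 0.34 ± 0.14, adjusted p = 0.395).

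None of 8 genes of the Notch list was called over all groups, nor any of the 7 tested with the 2 groups alone. Notch1, the receptor, was at 25.8, 24.3, 25.4 and 24.0 FPKM in induced and 20.5, 19.3 and 24.1 FPKM in natural libraries, against a mean of 77.4 ± 19.3 FPKM (SD, n = 2) in natural DN3. Its target Hes1 was at 0.433 to 4.84 FPKM against 3.03 to 4.48 FPKM, and the target Dtx1 at 1.10 to 2.61 FPKM against 3.42 to 5.19 FPKM.

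The CD8 beta chain fell in induced DN4, and several DP genes lay lower without passing the test. Its gene, Cd8b1, was at 36.9, 28.02, 46.6 and 49.3 FPKM in induced and 196, 136 and 137 FPKM in natural libraries. The highest induced library lay well under the lowest natural one, the difference was -1.94 ± 0.39 (SE, adjusted p = 0.00208), and the call was lost with a pseudocount of 0.1 (adjusted p = 0.14). Cd8a was at 7.23, 8.35, 7.75 and 9.78 FPKM against 14.3, 15.2 and 17.9 FPKM, also without overlap, but was called only with the 2 groups alone (difference -0.86 ± 0.33, adjusted p = 0.0201 there and 0.343 over all groups). Cd8b1 was the only gene called of the 8 gate genes and of the 17 DP stage genes, where 0.35% of all genes were called lower. None of them was called higher, beside 0.39% of all genes, which in lists this small is no result about them. Thy1, a pan-T surface protein, was at 424 to 486 FPKM in induced and 436 to 511 FPKM in natural libraries.

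Over the DP stage list the median difference was -0.32, and the fit of the 2 groups alone called 5 of 16 lower and 1 higher, where it called 3.15% of all genes lower and 3.1% higher. Satb1, a chromatin organizer, was at 297 to 348 FPKM in induced and 412 to 439 FPKM in natural libraries (adjusted p = 0.646, and 0.0286 with the 2 groups alone). The recombinase Rag1 was at 28.9 to 35.6 FPKM in induced and 27.3 to 29.5 FPKM in natural libraries, with overlap. Dntt, which adds bases at receptor junctions, was at 921, 975, 881 and 927 FPKM in induced against 767, 798 and 713 FPKM in natural libraries, and it was the gene called higher with the 2 groups alone (difference 0.29 ± 0.15, adjusted p = 0.047, against 0.671 over all groups).

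Genes of later maturation and of receptor signal strength were not called. None of 18 maturation and egress genes and none of 11 signal strength genes passed. Cd69, an early activation marker on both lists, was at 67.1, 88.0, 73.7 and 87.4 FPKM in induced and 42.0, 33.9 and 39.8 FPKM in natural libraries. Every induced library was higher, with a difference of 1.01 ± 0.34 (SE), an adjusted p of 0.227 over all groups and 0.00258 with the 2 groups alone. Klf2, which drives exit from the thymus, was at 11.1, 19.1, 27.1 and 23.4 FPKM against 6.01, 6.35 and 12.8 FPKM. Induced replicate 1 lay below the highest natural library, and the difference of 1.18 ± 0.42 (SE) was not called (adjusted p = 0.287). Nr4a1, which rises with receptor signals, was at 7.76 to 15.2 FPKM against 6.54 to 13.9 FPKM, and Egr1 at 3.00 to 4.29 FPKM against 5.41 to 8.73 FPKM. Cd5 was at 14.2 to 16.5 FPKM in induced and 17.7 to 22.6 FPKM in natural DN4.

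The division program was active in both groups, with mitotic genes leaning to the induced side. None of 20 mitotic genes was called, but 19 had a difference above 0 and their median was 0.39. With the 2 groups alone, 4 of 20 were called, all higher, beside 3.1% of all genes. Mki67, a marker of cycling cells, was at 60.6, 53.2, 46.8 and 50.8 FPKM in induced and 31.2, 35.4 and 32.3 FPKM in natural libraries. All induced libraries were above all natural ones (difference 0.66 ± 0.27, adjusted p = 0.456, and 0.0162 with the 2 groups alone). Ccnb1, the mitotic cyclin, was at 115, 82.5, 88.7 and 87.0 FPKM against 67.9, 44.8 and 56.9 FPKM (adjusted p = 0.639 and 0.0281).

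Replication genes were split. None of 20 was called, 8 had a difference above 0 (13 when each library was scaled to an equal total), and the 2 groups alone gave 3 lower and 1 higher, beside 3.15% and 3.1% of all genes. Rrm2, a subunit of ribonucleotide reductase, was at 72.5, 82.2, 74.1 and 75.7 FPKM in induced and 255, 172 and 173 FPKM in natural libraries. The groups are wide apart, yet the difference of -1.36 ± 0.41 (SE) was not called (adjusted p = 0.118, against 0.00052 with the 2 groups alone). Cdk2, the kinase of S phase entry, was at 49.9, 34.6, 39.5 and 43.0 FPKM against 67.5, 80.6 and 72.1 FPKM (adjusted p = 0.23 and 0.0106). Ccne2, a cyclin that binds it, was at 27.9, 28.9, 39.3 and 32.1 FPKM against 20.5, 16.3 and 17.5 FPKM, the other direction (difference 0.79 ± 0.44, adjusted p = 0.736 and 0.0198). Mcm5, part of the replicative helicase, was at 269 to 318 FPKM against 333 to 387 FPKM.

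None of 17 growth and metabolism genes, 11 survival genes, 11 genes of the p53 response or 16 interferon genes was called. Trp53 itself was at 133, 123, 132 and 17.6 FPKM in induced and 128, 146 and 152 FPKM in natural libraries, with induced replicate 4 far below the rest. Myc was at 53.5 to 76.8 FPKM in induced and 52.3 to 70.0 FPKM in natural libraries. Bcl2l1, which encodes the survival protein of DP cells, was at 9.46 to 13.7 FPKM against 11.9 to 13.1 FPKM. Tfrc, the transferrin receptor, was at 111, 116, 109 and 116 FPKM against 61.0, 72.0 and 83.3 FPKM, without overlap, and was called only with the 2 groups alone (adjusted p = 0.0123, against 0.631 over all groups). Ly6a, an interferon-inducible surface protein, was at 64.3 to 87.8 FPKM against 29.5 to 42.4 FPKM (adjusted p = 0.508 and 0.00375). Of the 13 mitochondrially encoded genes on the list none was called. mt-Atp8 was at 901 to 1471 FPKM against 306 to 397 FPKM (adjusted p = 0.0652 and 0.000358), and was also called with equal totals, quantile normalization or library weights. The 13 together summed to 86631 to 96858 FPKM in induced and 86056 to 92567 FPKM in natural libraries. Outside the list, the mitochondrial tRNA gene mt-Tk was called lower (adjusted p = 0.0112, and 0.23 with the 2 groups alone). It was listed at 0 in all induced libraries and at 0, 784 and 899 FPKM in the natural ones.

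The heat shock genes Hspa1a and Hspa1b were near 0 in natural DN4 and rose in induced DN4. They encode near-identical inducible HSP70 chaperones and lie beside each other on chromosome 17. Their promoter windows, 250 bases before to 50 after the start, are shown because reads can be split between such copies and because both genes rose. RefSeq, on build GRCm38.p6, gives Hspa1a at chr17:34972107-34972406 and Hspa1b at chr17:34959189-34959488, both on the minus strand. In the line for Hspa1a capitals mark a match to GAANNTTC, the core of a heat shock element, and in the line for Hspa1b capitals mark the 4 of 300 positions that differ from Hspa1a.
Hspa1a: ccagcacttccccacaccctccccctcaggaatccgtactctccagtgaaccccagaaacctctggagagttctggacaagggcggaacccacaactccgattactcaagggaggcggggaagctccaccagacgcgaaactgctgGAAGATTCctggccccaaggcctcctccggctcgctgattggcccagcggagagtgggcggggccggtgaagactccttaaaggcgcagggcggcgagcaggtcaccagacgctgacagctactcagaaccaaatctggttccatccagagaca
Hspa1b: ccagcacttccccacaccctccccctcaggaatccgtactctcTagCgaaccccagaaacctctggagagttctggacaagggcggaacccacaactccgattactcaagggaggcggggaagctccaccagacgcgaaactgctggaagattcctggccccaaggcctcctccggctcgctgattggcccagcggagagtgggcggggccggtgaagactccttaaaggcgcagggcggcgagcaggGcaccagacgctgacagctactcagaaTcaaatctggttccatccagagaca
Both windows hold the match 104 bases before the start. Searched on both strands, GAANNTTC occurs in 7.86% of the 32851 windows of this length in the table. The other phase of the element, TTCNNGAA, was searched too and occurs in 8.52%, and either phase in 15.06%. A match is not a shown binding site.

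Hspa1a was at 24.4, 20.8, 25.8 and 24.8 FPKM in the 4 induced libraries and listed at 0 in all 3 natural ones. No fold can be given against 0, and the gene was called with an adjusted p of 1.93e-14. Hspa1b was at 9.10, 8.01, 11.9 and 12.5 FPKM in induced and 0.193, 0.346 and 0 FPKM in natural libraries, a difference of 3.26 ± 0.30 (SE, adjusted p = 1.70e-11). The 2 genes are so alike that the level of each is uncertain, while both were higher in every induced library than in any natural one. A called predicted gene overlaps Hspa1a on the opposite strand, at 14.0 to 21.6 FPKM in induced libraries and listed at 0 in the natural ones. How reads were divided between these overlapping genes was not tested. Dnajb1, the HSP40 partner of HSP70, was at 124, 116, 129 and 111 FPKM in induced and 74.6, 68.8 and 75.5 FPKM in natural libraries (difference 0.71 ± 0.14, adjusted p = 0.00125). Hspa1a, Hspa1b and Dnajb1 were the called members of 12 heat shock genes, where 0.741% of all genes were called, and 9 of the 12 had an interval within 2-fold. Hspa8, the constitutive HSP70, was at 1106 to 1313 FPKM against 1164 to 1352 FPKM, with overlap. Hsp90aa1 was at 720.3, 721, 693 and 733 FPKM against 642, 511 and 446 FPKM, above every natural library, but was called only with the 2 groups alone (adjusted p = 0.0431, against 0.293 over all groups).

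Immediate early genes, which answer stimuli within minutes and include the AP-1 factors, also held 3 called members of 12, all higher (0.39% of all genes), and a median difference of 0.60. Klf6, a zinc finger factor, was at 23.0, 29.6, 25.2 and 29.9 FPKM in induced and 6.17, 6.92 and 9.73 FPKM in natural libraries (difference 1.71 ± 0.26, adjusted p = 2.18e-05). Jun, the core of AP-1, was at 8.82, 12.6, 7.61 and 10.3 FPKM against 1.09, 2.26 and 4.67 FPKM (difference 1.66 ± 0.33, adjusted p = 0.00244), and its call was lost without natural replicate 1 (adjusted p = 0.115). Jund was at 4.43, 3.73, 4.72 and 4.37 FPKM against 1.13, 2.01 and 1.44 FPKM (difference 1.08 ± 0.25, adjusted p = 0.017). All 3 genes were higher in every induced library, but the call of Jund was lost in 4 of 14 alternatives, each of them leaving out 1 library (adjusted p 0.0502 to 0.171).

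Fos, Fosb and Atf3 were not called over all groups, yet were with the 2 groups alone, where 6 of the 12 were called higher, beside 3.1% of all genes. Fos was at 284, 222, 305 and 259 FPKM in induced and 124, 159 and 186 FPKM in natural libraries (difference 0.78 ± 0.28, adjusted p = 0.293 over all groups and 0.0154 with the 2 alone). Atf3 was at 1.37, 1.72, 2.10 and 4.35 FPKM against 0, 0 and 0.273 FPKM. Dusp1, a phosphatase of stress kinases, was at 66.5 to 88.4 FPKM against 41.8 to 66.1 FPKM (adjusted p = 0.775). The Jun window (chr4:95052173-95052472, minus strand, RefSeq, GRCm38.p6) is shown because Jun was the AP-1 gene with the largest called difference and its window also holds GAANNTTC, in capitals, 128 bases before the start.
Jun: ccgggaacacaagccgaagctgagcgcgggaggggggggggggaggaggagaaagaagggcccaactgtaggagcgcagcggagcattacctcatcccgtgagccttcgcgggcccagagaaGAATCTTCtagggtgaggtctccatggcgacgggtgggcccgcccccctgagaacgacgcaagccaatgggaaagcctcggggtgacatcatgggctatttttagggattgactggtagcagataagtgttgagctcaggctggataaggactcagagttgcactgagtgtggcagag
The windows of Dnajb1 (both of its starts), Jund, Klf6, Fos and Fosb held no match to those letters, which says nothing of factors bound there. The RefSeq window of Jund (chr8:70697489-70697788, plus strand) ends before the start that GENCODE vM21 gives for the gene. The bases around that other start were not searched. The other letters searched matched neither these windows nor that of Jun.

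**Figure D3:**
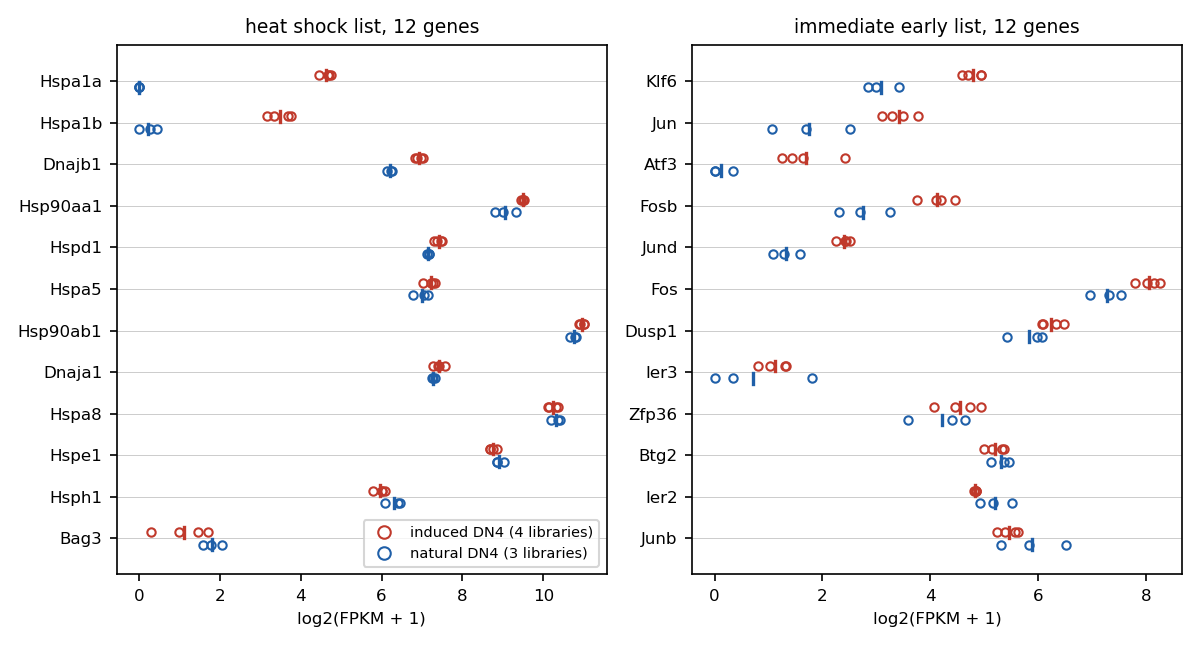
Expression (x axis, log2(FPKM + 1)) of the 12 heat shock and the 12 immediate early genes, ordered by their fitted difference; circles are libraries (red, 4 induced; blue, 3 natural) and short lines are means. Hspa1a and Hspa1b lie near 0 in the natural libraries and between 8.01 and 25.8 FPKM in the induced ones, while most other heat shock genes nearly coincide.

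By the rule for the largest differences (called, 5 FPKM or more as the mean of the higher group, no overlap of libraries, no receptor segments, pseudogenes, predicted or sex-marker genes), 91 genes qualified, and the 12 highest and 12 lowest are described here. Beside the HSP70 genes, the highest included Ctse, cathepsin E, a protease of endosomes. Ctse was at 160.0, 180.3, 168 and 159.7 FPKM in induced and 7.80, 10.8 and 2.94 FPKM in natural libraries, a difference of 4.50 ± 0.57 (SE, adjusted p = 1.90e-07). Cdc42ep3, an effector of the GTPase Cdc42, was at 103, 108, 94.0 and 101 FPKM against 13.5, 14.3 and 10.9 FPKM (difference 2.89 ± 0.24, adjusted p = 5.16e-13). Cpne8, a calcium-dependent phospholipid-binding copine, was at 58.2, 74.0, 96.9 and 80.1 FPKM against 5.84, 5.21 and 11.4 FPKM (difference 3.25 ± 0.30). These 3 were well expressed in every induced library and stood well above the highest natural one.

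Malat1, a long noncoding RNA kept in the nucleus, was at 58.3, 59.2, 98.3 and 59.5 FPKM in induced and 10.5, 7.61 and 15.1 FPKM in natural libraries (difference 2.54 ± 0.44, adjusted p = 0.000178). Neat1, another nuclear noncoding RNA, was at 3.09 to 4.43 FPKM against 2.51 to 4.17 FPKM, with overlap. Mid1, an X-linked ubiquitin ligase of microtubules, was at 12.8 to 31.3 FPKM against 0.102 to 1.02 FPKM (difference 3.88 ± 0.59), and since it lies on X its level and the sex of the cells cannot be told apart. Fbln2, an extracellular matrix protein, was at 28.9 to 36.7 FPKM against 2.61 to 6.68 FPKM.

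Among the 12 highest, Eps8l1, Tfpi and Erbb3 were near silent in natural DN4. Eps8l1, an actin regulator, was at 9.09, 14.2, 14.1 and 7.91 FPKM in induced and 0, 0 and 0.280 FPKM in natural libraries. Tfpi, the inhibitor of tissue factor, was at 8.03, 11.98, 7.80 and 11.2 FPKM against 0, 0 and 0.262 FPKM, and Erbb3, a receptor of neuregulins, at 3.88, 5.48, 6.18 and 5.03 FPKM against 0.0858, 0 and 0.0411 FPKM. Osbpl1a, an oxysterol-binding protein, was at 11.3 to 16.6 FPKM against 0.374 to 2.51 FPKM. All 12 kept their call under every alternative run.

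**Figure D4:**
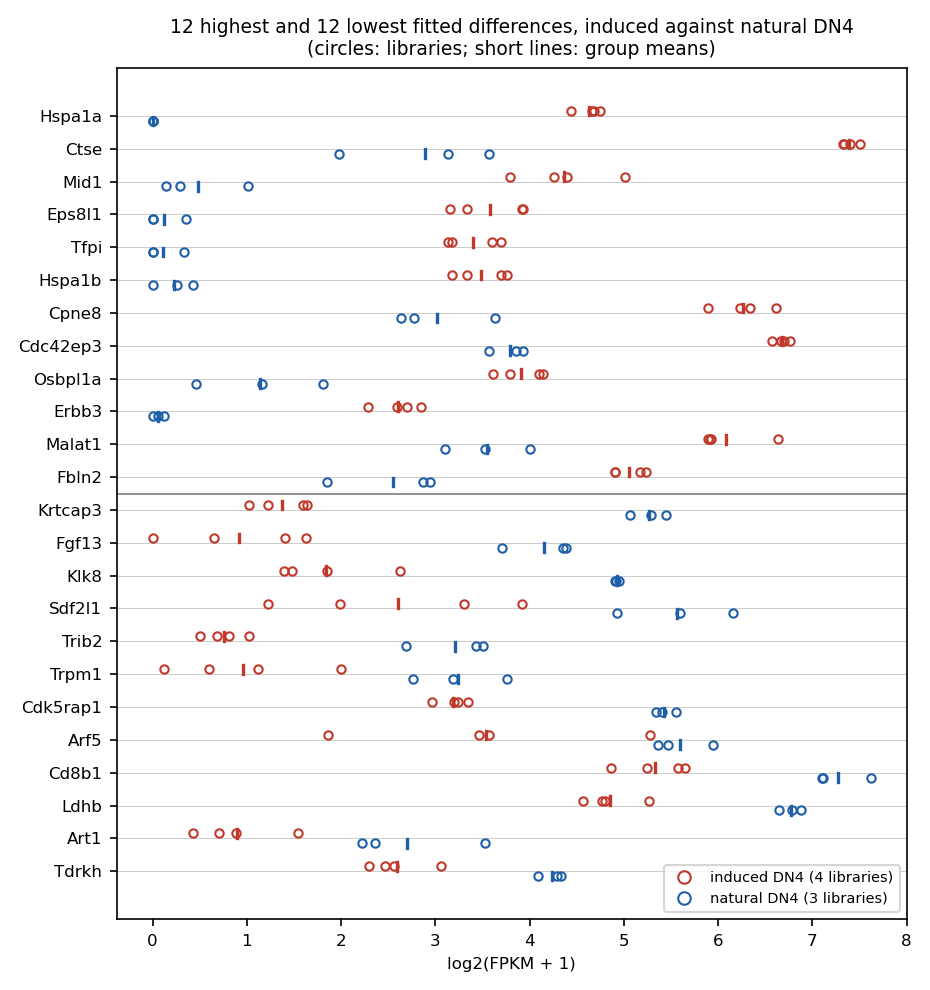
Expression (x axis, log2(FPKM + 1)) of the 12 genes with the highest (top) and the 12 with the lowest (bottom) fitted differences; circles are libraries (red, 4 induced; blue, 3 natural) and short lines are group means. By the rule that chose them no gene overlaps between groups; Arf5 comes closest, with induced replicate 4 at 37.7 FPKM and the lowest natural library at 40.2 FPKM.

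The lowest differences belonged to genes of several functions. Krtcap3, a membrane protein, was at 1.33, 1.03, 2.11 and 2.03 FPKM in induced and 42.7, 32.4 and 38.0 FPKM in natural libraries (difference -3.90 ± 0.78, adjusted p = 0.00208). Klk8, a secreted serine protease, was at 5.15, 1.79, 1.62 and 2.59 FPKM against 29.8, 29.3 and 29.0 FPKM (difference -3.09 ± 0.41, adjusted p = 4.69e-07). Trib2, a pseudokinase linked to leukemia, was at 0.607, 0.758, 1.03 and 0.417 FPKM against 9.76, 5.44 and 10.4 FPKM (difference -2.45 ± 0.32). In each of these 3 genes the natural libraries lay together, several-fold above the highest induced one.

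Cdk5rap1, a modifier of mitochondrial tRNA, was at 8.44, 8.15, 6.82 and 9.17 FPKM in induced and 41.2, 39.4 and 45.9 FPKM in natural libraries (difference -2.24 ± 0.41). Ldhb, the lactate dehydrogenase B chain, was at 26.9, 22.6, 37.5 and 26.2 FPKM against 109, 117 and 99.2 FPKM (difference -1.92 ± 0.32, adjusted p = 0.000119, and 0.107 with a pseudocount of 0.1). Fgf13, a growth factor homolog on X, was at 0 to 2.08 FPKM against 12.1 to 19.9 FPKM (difference -3.23 ± 0.48). Arf5, a small GTPase of the Golgi, was at 9.99, 10.9, 2.62 and 37.7 FPKM against 43.3, 40.2 and 60.6 FPKM. The scatter of its induced libraries is wide, and the call was lost with the 2 groups alone (adjusted p = 0.183).

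The 4 others were less stable. Sdf2l1, a protein of the endoplasmic reticulum, was at 1.33 to 14.1 FPKM in induced and 29.3 to 70.2 FPKM in natural libraries, and lost its call under 4 of 14 alternatives (adjusted p 0.053 to 0.0737). Trpm1, a cation channel, lost it under 5 (0.0622 to 0.208) with 0.0854 to 2.99 FPKM against 5.78 to 12.6 FPKM. Art1, an ADP-ribosyltransferase, lost it under 7 (0.0513 to 0.376) with 0.345 to 1.92 FPKM against 3.66 to 10.5 FPKM. Tdrkh, a Tudor domain protein, lost it under 7 (0.0523 to 0.422) with 3.92 to 7.35 FPKM against 16.0 to 19.1 FPKM.

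Many of the differences at DN4 were seen at the neighbouring stages, whose libraries are separate from those of DN4. The labels do not say whether the stages came from the same animals. The 3 comparisons also share 1 estimate of the spread per gene, so their calls are not independent. Induced against natural DP (3 against 4 libraries) gave 1804 calls (10.4% of genes) and induced against natural DN3 (3 against 2) gave 616 (3.54%). Of the 129 genes called at DN4, 70 were called in the same direction at DP (54.3% of the DN4 calls, 3.88% of the DP calls) and 1 in the opposite one. At DN3, 56 were called in the same direction (43.4% of the DN4 calls, 9.09% of the DN3 calls) and none in the opposite one. Called in the same direction at all 3 stages were 37. Markers of sex differed between sources at these stages too. Xist was at means of 10.3 ± 3.50 and 0.0676 ± 0.135 FPKM (SD, n = 3 and 4) in induced and natural DP, and of 14.3 ± 2.17 and 0.4003 ± 0.466 FPKM (SD, n = 3 and 2) in induced and natural DN3. Eif2s3y was listed at 0 in induced DN3 but had a mean of 2.25 ± 2.86 FPKM (SD, n = 3) in induced DP, against 74.6 ± 32.4 FPKM (SD, n = 4) in natural DP, so Y transcripts were low but not absent in induced DP.

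Cpne8 was among the genes with like differences at each stage. Its difference was 3.25 ± 0.30 (SE) at DN4, 3.11 ± 0.30 at DP and 2.41 ± 0.36 at DN3. Ctse gave 4.50 ± 0.57, 5.34 ± 0.57 and 3.86 ± 0.68, and Cdc42ep3 gave 2.89 ± 0.24, 4.18 ± 0.24 and 3.41 ± 0.29, of which the DN4 value was smaller than that of DP (difference -1.29 ± 0.34, adjusted p = 0.0429). Tcf3 differed by -1.10 at DN4, -1.43 at DP and -0.71 at DN3, where it was not called (adjusted p = 0.071).

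The difference between sources itself differed between DN4 and DP for 191 genes (1.1% of genes), 104 with a more positive value at DN4 and 87 with a more negative one. With equal totals these were 72 and 111, and with only the 4 groups fitted 27 genes passed. Without induced DP replicate 2 the count was 103, without natural DN4 replicate 3 it was 106 and without natural DN4 replicate 2 it was 113. Of the 129 DN4 calls 14 were among the 191, and in 13 of them the DN4 difference was the larger one. Choosing genes by their DN4 call favours that outcome, so no conclusion is drawn from it. Malat1 differed between sources by 2.54 ± 0.44 (SE) at DN4 and by -0.26 ± 0.44 at DP (difference of differences 2.81 ± 0.62, adjusted p = 0.00956). For Klf6 the values were 1.71 ± 0.26 and 0.33 ± 0.26 (adjusted p = 0.0472), and for Hspa1b 3.26 ± 0.30 and 1.47 ± 0.30 (adjusted p = 0.0185). For Hspa1a, the near copy of Hspa1b, they were 4.63 ± 0.35 and 3.36 ± 0.35, which did not pass (difference of differences 1.28 ± 0.50, adjusted p = 0.256). At DN3 the differences were 4.38 ± 0.52 for Malat1, 2.10 ± 0.32 for Klf6, 4.19 ± 0.36 for Hspa1b and 5.08 ± 0.42 for Hspa1a, so these rises were not particular to DN4. Klk8 differed by -3.09 at DN4 and by -0.66 at DP (adjusted p = 0.0174), where natural cells had a mean of 0.732 ± 0.895 FPKM (SD, n = 4).

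Other genes were called at DP and not at DN4. Cd69 had a difference of -2.40 ± 0.34 (SE) at DP and of 1.01 ± 0.34 at DN4 (difference of differences 3.41 ± 0.48, adjusted p = 7.01e-06). Fos and Dusp1 differed by -1.49 ± 0.28 and -1.47 ± 0.25 at DP and by 0.78 ± 0.28 and 0.43 ± 0.25 at DN4, with differences of differences of 2.27 ± 0.40 (adjusted p = 0.000617) and 1.89 ± 0.35 (adjusted p = 0.00155). Snx18, a membrane-remodeling sorting nexin, was at 36.7 ± 10.7 FPKM (SD, n = 4) in natural DP, 2.42 ± 1.19 FPKM (SD, n = 3) in induced DP, and 3.00 to 3.75 FPKM and 1.72 to 3.69 FPKM in induced and natural DN4. Dusp6, a phosphatase of ERK kinases, was at 31.5 ± 7.61 FPKM in natural and 0.699 ± 0.331 FPKM in induced DP (SD, n = 4 and 3), and at 0.931 to 3.88 FPKM and 0.388 to 0.586 FPKM in natural and induced DN4. Capg, an actin-capping protein, and Smyd5, a methyltransferase, were higher in induced DP, by 3.27 ± 0.34 and 2.91 ± 0.28, but not called at DN4, with differences of differences of -3.73 ± 0.48 and -3.27 ± 0.39 (adjusted p = 4.96e-07 and 1.06e-07).

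Between DN4 and DN3 the differences differed for 22 genes (0.126%), 10 more positive at DN4 and 12 more negative. Without natural DN3 replicate 1 that count was 140 and without replicate 2 it was 94, so it depends on the 2 natural DN3 libraries. With a pseudocount of 0.1 the count was 51, with library weights 41 and with only the 4 groups fitted 11. Trac was listed at 0 in both natural DN3 libraries and had a mean of 5.01 ± 5.61 FPKM (SD, n = 3) in induced DN3, whereas at DN4 its difference was -1.50 ± 0.46 (difference of differences -3.47 ± 0.72, adjusted p = 0.0142). Cd81, a tetraspanin, was at 57.5 to 72.3 FPKM in induced and 56.6 to 71.8 FPKM in natural DN4 but at means of 18.8 ± 7.23 FPKM (SD, n = 3) and 0.878 ± 0.458 FPKM (SD, n = 2) at DN3 (adjusted p = 5.69e-06).

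**Figure D5:**
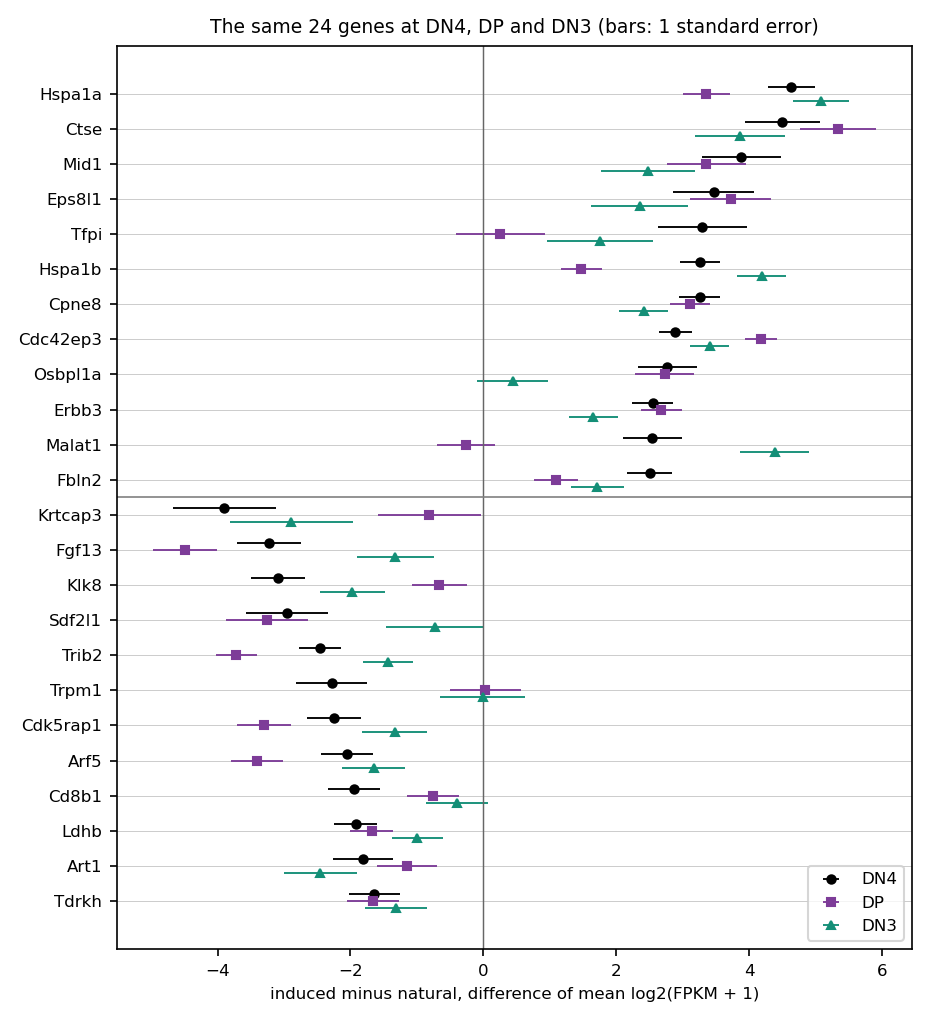
Fitted difference, induced minus natural (x axis, log2(FPKM + 1), bars 1 standard error), of the 12 highest (top) and 12 lowest (bottom) genes of DN4, at DN4 (black circles), DP (purple squares) and DN3 (green triangles). The DN4 values chose the genes; Tfpi and Malat1 lie near 0 at DP, at 0.26 and -0.26, while Cdc42ep3 reaches 4.18 there.

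Markers of other cells that a DN4 gate could hold gave no call outside the natural killer list. None of 15 myeloid and none of 15 stem and progenitor genes was called, and 13 and 12 of them stayed under 1 FPKM in all 7 libraries. The summed myeloid level was 0.435 to 1.76 FPKM in induced and 0.692 to 1.87 FPKM in natural libraries. The stem and progenitor genes summed to 3.41 to 6.05 FPKM against 1.97 to 2.15 FPKM, without overlap. Spi1, a factor of myeloid cells, did not exceed 0.0834 FPKM, and Lyz2, a myeloid lysozyme, did not exceed 0.154 FPKM. None of the 8 erythroid, 12 dendritic or 5 tested thymic stroma genes was called. The dendritic genes summed to 101 to 119 FPKM against 78.9 to 98.2 FPKM, also without overlap, the erythroid genes to 1.14 to 2.69 FPKM against 0.574 to 3.58 FPKM, and the stroma genes to 15.6 to 22.8 FPKM against 18.2 to 21.6 FPKM. None of 8 Hox genes tested was called, and the 11 listed summed to 0.104 to 0.939 FPKM against 0.583 to 2.57 FPKM.

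Genes shared with innate-like cells were plain in both groups. None of 12 gamma-delta and innate-like genes was called, and together they summed to 1185 to 1371 FPKM in induced and 867 to 1057 FPKM in natural libraries. With the 2 groups alone, 2 of 11 were called higher and 1 lower, beside 3.1% and 3.15% of all genes. Sox13, a factor of gamma-delta cells, was at 9.33 to 15.4 FPKM against 10.7 to 18.8 FPKM, and Cd163l1, a scavenger receptor of such cells, at 38.3 to 67.0 FPKM against 43.4 to 50.9 FPKM. Of 15 natural killer and cytotoxic genes 2 fell and none rose, where 0.35% of all genes fell. The chemokine Ccl5 was at 0.446, 0, 0 and 0 FPKM in induced and 5.09, 5.30 and 1.69 FPKM in natural libraries (adjusted p = 0.0145, and 0.14 to 0.152 without natural replicate 1 or 2). Il2rb, the interleukin 2 receptor beta chain, was at 1.20, 1.89, 0.665 and 1.95 FPKM against 4.14, 2.71 and 8.54 FPKM (adjusted p = 0.00992, lost under 4 of 14 alternatives, 0.0609 to 0.319). Gzma, a granule protease, was abundant in both, at 1165, 1301, 1712 and 1432 FPKM against 2072, 2002 and 1829 FPKM, lower in every induced library but not called (adjusted p = 0.971, and 0.0327 with the 2 groups alone). The summed level of the 15 genes, which Gzma dominates, was 1215 to 1780 FPKM in induced and 1904 to 2119 FPKM in natural libraries, and Ncr1, which defines natural killer cells, was listed at 0 in all 7. The part of such cells in the Ccl5 and Il2rb results was not tested.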

How the data were processed

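RNA was sequenced from polyA RNA of 1000 sorted cells a library. Per the submitters' processing notes, the authors used bcl2fastq, TopHat, Cufflinks 2.2.1 and Cuffnorm on build NCBIM37, and deposited 1 table of FPKM for 37980 genes. Parameters and annotation are not given in the sources used here. Columns were matched to libraries by name, and 0 belonged to no sample. Symbols came from GENCODE vM21 (GRCm38), which matched 32916 IDs (86.7%). Of 76 libraries, 1 ProPreB library was identical to another and dropped, leaving 75 in 24 groups. Genes at 1 FPKM or more in at least 2 libraries (17416) were fitted on log2(FPKM + 1) with limma 3.58.1 (R 4.3.3, trended and robust variances, 51 residual degrees of freedom, Benjamini-Hochberg adjustment, threshold 0.05). The FPKM filter and pseudocount understate changes of low genes. Fragments per FPKM and kilobase were read from the steps of low values, of which 70.2% to 76.5% fell within 0.2 of a whole fragment in DN4 libraries, so no count test was run. The table does not hold counts. Segment values were compared with exact two-sided permutation tests (scipy 1.17.1, Python 3.11.15).

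Named genes were list members, the 12 highest and 12 lowest called genes by the rule in the text, and for each difference of differences up to 6 in each direction, of which some are described; a few list members are not reported here. Members, lists and tests were chosen with earlier results of these data known, and some further genes after their values were seen. Alternatives changed the pseudocount (0.1), filter, scaling (equal totals, quantiles), library weights, the replicate block and the groups fitted, or left out each library.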

Additional observations from a re-analysis of the deposited data

Results flagged for a closer look

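In 8 of 132 genes given here, 1 induced library lay far from the other 3 relative to their range. Chance gives such a gap in about 1 in 20 groups. Trp53, the tumor suppressor, was at 17.6 FPKM in induced replicate 4 and at 123 to 133 FPKM in the other 3. Malat1 was at 98.3 FPKM in induced replicate 3, Casp8 at 54.2 FPKM in the same library, Fsd1 at 1.26 FPKM there, Top2a at 524 FPKM in replicate 1, Dtx1 at 1.10 FPKM and Cd5 at 14.2 FPKM in replicate 2, and Selplg at 180.1 FPKM in replicate 4.

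The difference between sources differed between DN4 and DP by the test of the difference itself for 191 genes, and between DN4 and DN3 for 22. Among the genes given here, the DN4 value was above the DP value by 3.67 for Snx18, 3.41 for Cd69, 3.40 for Dusp6, 2.81 for Malat1, 2.27 for Fos, 1.89 for Dusp1, 1.79 for Hspa1b and 1.38 for Klf6 on the log2 scale. It was below the DP value for Capg (-3.73), Smyd5 (-3.27), Klk8 (-2.43), Msantd3 (-1.70), Cdc42ep3 (-1.29), Cd4 (-1.22) and Hoxb5 (-0.88). Hspa1a, the near copy of Hspa1b, did not pass that test (1.28, adjusted p = 0.256). Against DN3 the differences were -3.47 for Trac, -3.36 for Cd81, 2.42 for Fsd1 and 1.98 for Msantd3. Cd4 is low at DN4 in both sources (0.651 to 1.31 and 0.8289 to 2.32 FPKM), and the induced cells had the higher mean at DP (152 ± 13.8 against 82.9 ± 12.9 FPKM, SD, n = 3 and 4).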

How the results depend on the processing

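The 129 calls at DN4 became 1462 with library weights and 708 with only the 2 groups fitted, and 77 to 108 when 1 library was left out, the lowest without natural replicate 1. Other settings gave 118 to 168. With equal totals 78 were higher and 41 lower. Genes within 2-fold numbered 10775, but 5313 with a pseudocount of 0.1 and 16444 without the filter, and 9162 to 9992 with 1 library left out. The 191 genes whose difference differed from DP became 27 with only the 4 groups fitted and 103 to 251 with 1 library left out. With equal totals 72 of these were more positive and 111 more negative. The 22 genes against DN3 became 51 with a pseudocount of 0.1, 41 with library weights, 11 with only the 4 groups fitted and 16 to 140 with 1 library left out. Fewer samples enter the last kind of fit, and otherwise the cause was not tested.

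Deviations of libraries with the same replicate number were close to uncorrelated (r across genes of -0.000, 0.051 and 0.012 for the 3 pairs). Pairs with unlike numbers gave -0.067 to 0.032. The labels do not say whether the numbers pair libraries, and these values cannot settle it. With the replicate block the counts were 118, 165 and 21.

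Of 44 called genes given in the text, 26 kept their call under all 14 alternatives and 18 lost it under at least 1, and of 88 not called 38 gained one. No gene changed direction past the threshold. The share of the leading Trbv segment differed by -2.27 to -1.31 percentage points and that of the leading Trav segment by 27.0 to 43.9 when 1 library was left out, and the number of segments at 1 FPKM by 0 to 0.5 and -3 to -2. With 4 and 3 libraries no exact test can reach the threshold, and depth is known only as a ratio between libraries.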

Other observations

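Some called genes outside the lists and the rule for the largest differences bear on the traffic and signaling of thymocytes. They were chosen after their values were seen. Cxcr4, the chemokine receptor that acts with the pre-T receptor in beta selection, was at 17.3, 15.3, 23.7 and 19.4 FPKM in induced and 2.22, 3.26 and 4.73 FPKM in natural libraries. The groups do not overlap (difference 2.201 ± 0.46, SE, adjusted p = 0.00394, and 0.0686 without natural replicate 1). The difference was 1.563 ± 0.46 at DP and 1.984 ± 0.55 at DN3. Selplg, the P-selectin ligand of cells that home to the thymus, was at 218, 220.1, 219 and 180.1 FPKM against 324, 318 and 304 FPKM (difference -0.59 ± 0.13, adjusted p = 0.00606, lost under 3 of 14 alternatives at 0.0524 to 0.146).

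Zfp36l2, an RNA-binding protein that with its paralog holds back the cell cycle around beta selection, was at 187, 196, 171 and 244 FPKM in induced and 394, 389 and 404 FPKM in natural libraries (difference -0.996 ± 0.14, adjusted p = 1.43e-06, called under every alternative run). Rhoh, a GTPase needed for Zap70 to reach the receptor, was at 78.6, 67.5, 58.4 and 75.2 FPKM against 126, 107 and 128 FPKM (difference -0.78 ± 0.14, adjusted p = 0.000408, likewise called under every alternative). Tec, a tyrosine kinase, was at 1.13 to 2.39 FPKM against 5.28 to 6.22 FPKM (difference -1.28 ± 0.28, adjusted p = 0.00973, and 0.0558 to 0.0676 without induced replicate 1 or natural replicate 3). Higher in induced DN4 were Casp8, the initiator caspase, at 39.2 to 54.2 FPKM against 21.2 to 26.3 FPKM (adjusted p = 0.0319), and Hif1a, the hypoxia factor, at 27.2 to 30.2 FPKM against 11.98 to 16.7 FPKM (adjusted p = 0.0276). Each of these lost its call under 7 of 14 alternatives, at 0.0513 to 0.246 and 0.0522 to 0.241.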
